A study of Homo sapiens with 12 samples.

Results

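The measurements described here are the transcript levels of 10 enzymes that remove superoxide and peroxides, out of 58735 genes in the deposited count table. They were chosen by gene symbol, with earlier results of these data known: the superoxide dismutases SOD1 and SOD2, the catalase CAT, the glutathione peroxidases GPX1 and GPX4, and the peroxiredoxins PRDX1, PRDX2, PRDX3, PRDX5 and PRDX6. All 10 passed the filter on low counts, and 16891 genes in all could be tested. The cells were FDX2-iKO ES2 cells, a human ovarian carcinoma line in which the endogenous gene for FDX2, a mitochondrial ferredoxin of iron-sulfur cluster assembly, is knocked out while doxycycline (Doxy) drives an HA-tagged FDX2 resistant to the editing. The 4 conditions, with 3 biological replicates each, were 20% O2 + Doxy and 20% O2 wo Doxy after 6 days at 20% O2, and 3% O2 + Doxy and 3% O2 wo Doxy after 4 days at 20% O2 and 3 further days at 3% O2. All 12 libraries thus carried the knockout and the TetON transgene, Doxy kept FDX2 present in the + Doxy groups, and its withdrawal (wo Doxy) is called FDX2 loss below. The study's methods name 1 clone as the source of its data unless stated otherwise, no library of unedited cells was analysed here, and an effect of Doxy itself cannot be told apart from that of FDX2. Likewise, lower oxygen cannot be told apart from the longer culture of the 3% O2 groups.

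Superoxide arises mainly as a by-product of electron transfer, and superoxide dismutases turn it into hydrogen peroxide, SOD1 with copper and zinc mostly in the cytosol and SOD2 with manganese in the mitochondrial matrix. Hydrogen peroxide is then split by catalase, a heme enzyme of peroxisomes, or reduced by glutathione peroxidases, which use glutathione, and by peroxiredoxins, most of which draw electrons from thioredoxin. Among the latter, PRDX1 and PRDX2 are mainly cytosolic, PRDX3 is mitochondrial, PRDX5 is found in mitochondria, peroxisomes and cytosol, and PRDX6 uses glutathione. GPX1 and GPX4 are selenoproteins, and GPX4 reduces lipid hydroperoxides within membranes, the reaction whose failure leads to ferroptosis.

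The genes lie on 7 chromosomes of GRCh38 (GENCODE release 29). SOD1 lies at chr21:31659622-31668931, SOD2 at chr6:159669057-159745186 and CAT at chr11:34438925-34472062. GPX1 lies at chr3:49357171-49358600, entered in that release as a polymorphic pseudogene, and GPX4 at chr19:1103926-1106791. The peroxiredoxin genes are at chr1:45511036-45523047 (PRDX1), chr19:12796820-12801859 (PRDX2), chr10:119167703-119178833 (PRDX3), chr11:64318088-64321811 (PRDX5) and chr1:173477266-173488807 (PRDX6). Of the exonic bases of PRDX1, 24.9% are shared with MMACHC on the other strand, and of those of PRDX2, 14.1% are shared with AC018761.2 on the other strand. Since the strand setting of the counting is not stated, reads in these stretches cannot be assigned with certainty. SOD2 shares 5.12% of its exonic bases with a second SOD2 identifier on the same strand, which received 2 to 32 counts per library against 1101 to 2032 for the identifier used here. Another 1.81% of its exonic bases are shared with WTAP on the other strand. Processed pseudogenes of 6 of the genes are annotated. That of GPX1, GPX1P1, received 112 to 285 counts, at most 4.32% of the GPX1 count of the same library, while the other pseudogenes had at most 3 counts.

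RefSeq (GRCh38.p14) gives 13 promoter windows for 7 of the 10 genes (not SOD1, PRDX1 and PRDX6). The 250 bases before the transcription start are shown for PRDX3 and SOD2, whose transcripts fell with FDX2 loss at 20% O2 in every alternative fit, and for PRDX5, whose transcript rose. The PRDX3 window is chr10:119178813-119179062 on the minus strand, the SOD2 window is chr6:159693242-159693491 on the minus strand (1 of 4 windows of this gene, at the start farthest downstream), and the PRDX5 window is chr11:64317871-64318120 on the plus strand (1 of 2). Capitals mark matches to any of 4 motifs, searched on both strands: the antioxidant response element TGACNNNGC, an NF-kB motif given here by name only, the core of the hypoxia response element ACGTG, and the AP-1 motif TGANTCA.
PRDX3: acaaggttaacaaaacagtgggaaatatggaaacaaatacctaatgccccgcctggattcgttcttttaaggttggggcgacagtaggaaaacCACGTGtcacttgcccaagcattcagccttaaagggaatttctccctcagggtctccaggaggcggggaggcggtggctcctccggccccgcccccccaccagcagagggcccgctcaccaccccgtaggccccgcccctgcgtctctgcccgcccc
SOD2: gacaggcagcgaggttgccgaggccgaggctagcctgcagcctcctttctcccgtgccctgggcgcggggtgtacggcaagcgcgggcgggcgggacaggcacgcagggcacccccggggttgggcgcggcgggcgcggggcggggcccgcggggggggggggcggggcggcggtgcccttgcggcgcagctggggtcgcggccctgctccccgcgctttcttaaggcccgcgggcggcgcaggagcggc
PRDX5: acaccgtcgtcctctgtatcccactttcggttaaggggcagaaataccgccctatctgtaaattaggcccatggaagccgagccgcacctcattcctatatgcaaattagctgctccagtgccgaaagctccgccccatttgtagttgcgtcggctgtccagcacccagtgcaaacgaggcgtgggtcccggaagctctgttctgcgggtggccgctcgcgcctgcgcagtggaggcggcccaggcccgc
The match in PRDX3 begins 157 bases before the start and is ACGTG read on both strands. Across the 13 windows, ACGTG was found in 5, belonging to GPX1, GPX4, PRDX2 and PRDX3, of which 2 are overlapping GPX4 windows that hold the same site, against 18.5% of the 35114 RefSeq windows searched. The NF-kB motif was found in 2 windows, of GPX4 and of SOD2 (another window than the one shown), against 22.6% of all windows. A looser NF-kB form, which includes the stricter one, was found in 11 of the 13 and in 54.4% of all windows. Neither TGACNNNGC (10.9% of all windows) nor TGANTCA (6.57%) was found in the windows of these genes.

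Libraries held between 24958386 and 34313637 counts. Levels are given as CPM, the gene's counts scaled to the TMM-adjusted size of the library, as mean ± SD of 3 replicates. In bulk libraries these are shares of the counted mRNA, so fewer expressing cells and less RNA per cell cannot be told apart. FDX2 itself had 2 to 13 counts per library, and 70.9% of its exonic bases are shared on the same strand with AC011511.1 and AC011511.4, so its loss could not be checked on these counts. CA9, a HIF-1 target encoding a carbonic anhydrase, stood between 0.0588 and 0.289 CPM in the libraries of 20% O2 and between 40.4 and 87.3 CPM in those of 3% O2, with 38.5% of its exonic bases shared with ARHGEF39 on the other strand. Of 11 markers of ovarian carcinoma or epithelium, PAX8, KRT7, KRT8, KRT18 and VIM passed the filter, whereas EPCAM, CDH1, KRT19, WT1 and MUC16 had at most 8 counts in any library. The summed level of the markers ranged from 3868 to 4693 CPM at 20% O2 + Doxy, 2912 to 3079 at 20% O2 wo Doxy, 4302 to 5432 at 3% O2 + Doxy and 3861 to 4542 at 3% O2 wo Doxy. The 8 markers of blood, endothelial and liver cells summed to at most 0.765 CPM, and HBB had 0 counts throughout. In all, 3 libraries stood apart from their own condition, namely 20% O2 + Doxy replicate 1, 3% O2 + Doxy replicate 3 and 3% O2 wo Doxy replicate 1. Counts of pairs that include one of them differed with a chi-square per degree of freedom of 21.3 to 39.7, against 2.55 to 8.80 for the other pairs of replicates. Whatever sets these libraries apart was not tested. All comparisons were therefore also made without these 3 libraries, a choice made after the data were seen, which by its construction also lowers the spread between replicates.

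Levels of the genes were compared with each other only per length of transcript. At 20% O2 + Doxy, PRDX1 was the most abundant with 898 ± 37.4 CPM per kb of its median coding transcript (SD, n = 3). PRDX5 followed at 279 ± 8.43 CPM per kb, GPX1 at 196 ± 23.1, PRDX6 at 186 ± 3.04, SOD1 at 174 ± 6.75, GPX4 at 159 ± 22.4, PRDX3 at 156 ± 8.94 and PRDX2 at 131 ± 14 CPM per kb. SOD2, at 66.6 ± 3.37, and CAT, at 15.1 ± 0.921 CPM per kb, were the lowest. Replicates overlapped between GPX1 and PRDX6, SOD1 and GPX4, GPX4 and PRDX3, and PRDX3 and PRDX2, so that these neighbours in the order did not differ beyond their spread. PRDX1, PRDX5 and GPX1 kept the first to the third place in all 4 conditions on both length scales used. The place of SOD2 depended on the scale, because its exons together cover 16493 bases while its median coding transcript has 866: per kb of all exonic bases it had 3.50 ± 0.177 CPM and stood below CAT with 9.65 ± 0.589. Together the 10 transcripts amounted to 2149 ± 5.93 CPM at 20% O2 + Doxy, 1961 ± 50.7 at 20% O2 wo Doxy, 2095 ± 40.3 at 3% O2 + Doxy and 2092 ± 35.6 at 3% O2 wo Doxy.

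**Figure D1:**
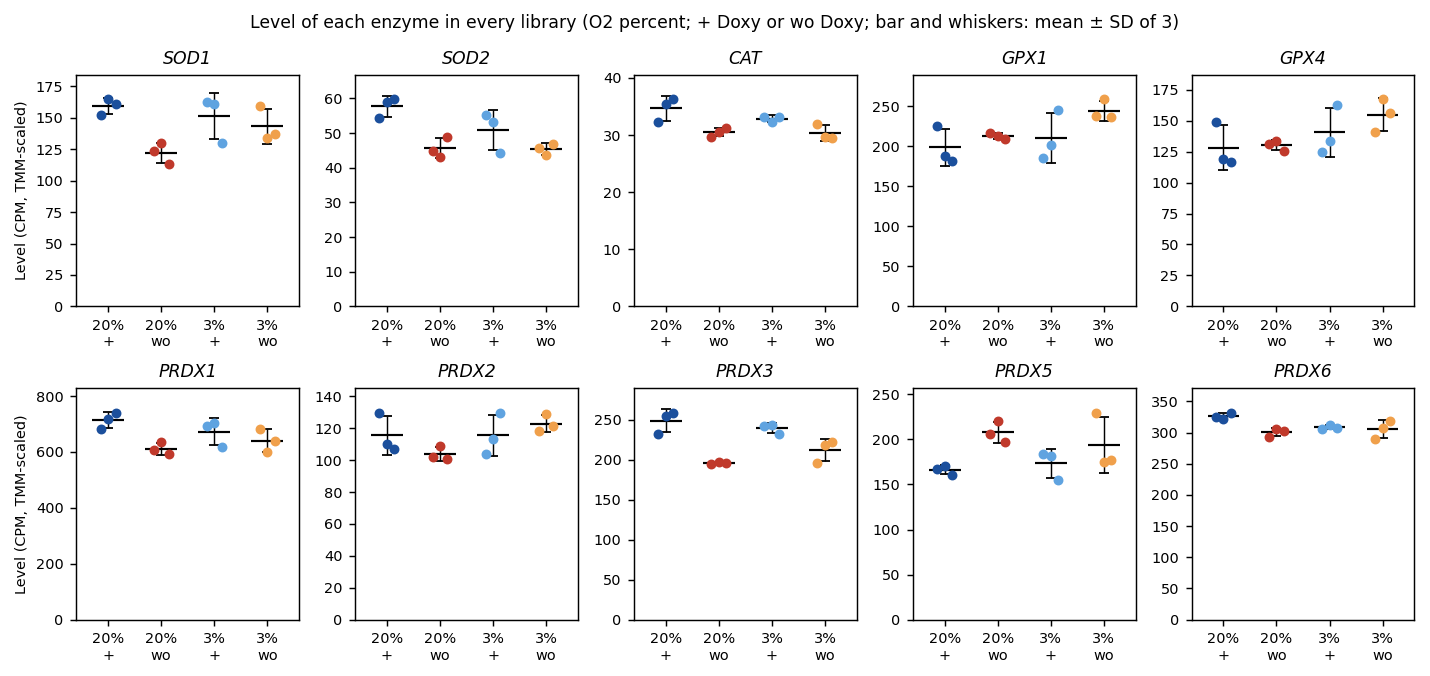
Level of each of the 10 transcripts (vertical axes, CPM from 0) in the 3 libraries of each condition (horizontal axes: O2 percent, with (+) or without (wo) Doxy), with mean and SD as bar and whiskers. At 20% O2, the libraries wo Doxy of SOD1, SOD2, CAT, PRDX1, PRDX3 and PRDX6 all lie below those + Doxy, and those of PRDX5 lie above.

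The first comparison asked how these enzymes respond to FDX2 loss at 20% O2. Of the 10 transcripts, 6 passed the test (edgeR's quasi-likelihood test on all 12 libraries, Benjamini-Hochberg adjusted p under 0.05 over all genes), while 35.3% of all genes tested did. SOD1, SOD2, CAT, PRDX1 and PRDX3 fell, by 12% to 23.4%, and PRDX5 rose by 25%. Falls were called for 17.7% and rises for 17.6% of all genes. The median log2 fold change of the 10 was −0.17, against 0.01 over all genes.

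Both superoxide dismutases fell. SOD1 had 153, 165 and 161 CPM in the 3 libraries with Doxy and 123, 130 and 113 CPM in those without. No library without Doxy reached the lowest one with Doxy, and the log2 fold change was −0.38 (SE 0.0953, 95% interval −0.59 to −0.17, adjusted p = 0.00928). SOD2 went from 54.3, 59.0 and 59.7 CPM to 44.9, 43.1 and 48.9 CPM, again without overlap. Its log2 fold change was −0.34 (SE 0.0832, 95% interval −0.52 to −0.15, adjusted p = 0.00896). CCS, the chaperone that loads copper onto SOD1, had 25.3 ± 1.77 CPM with and 24.4 ± 0.304 CPM without Doxy (adjusted p = 0.530).

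Catalase fell by the least of the transcripts called. CAT had 32.2, 35.5 and 36.2 CPM with Doxy and 29.7, 30.6 and 31.2 CPM without. The groups did not overlap, although replicate 1 with Doxy lay only slightly above the libraries without. The log2 fold change was −0.18 (SE 0.0579, adjusted p = 0.0292). The call was lost when any library of these 2 conditions other than 20% O2 + Doxy replicate 1 was left out (log2 −0.22 to −0.16, adjusted p 0.0535 to 0.144), and in a fit to the 6 libraries alone (adjusted p = 0.0715). Of 14 alternative fits, CAT passed in 6.

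Neither glutathione peroxidase passed the test at 20% O2. GPX1 had 226, 188 and 182 CPM with Doxy and 217, 213 and 209 CPM without, so that replicate 1 with Doxy lay above and the other two below all libraries without. GPX4, which guards membranes against lipid peroxides, had 149, 119 and 116 CPM with Doxy and 131, 134 and 126 CPM without, in the same arrangement. Their log2 fold changes were 0.10 (95% interval −0.13 to 0.33, adjusted p = 0.489) and 0.02 (−0.23 to 0.28, adjusted p = 0.902), so changes of this size in either direction could not be told from none.

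The peroxiredoxins moved in both directions. PRDX3, the mitochondrial enzyme, had 232, 255 and 259 CPM with Doxy and 194, 196 and 196 CPM without, and had the lowest adjusted p of the 10. Its log2 fold change was −0.35 (SE 0.0588, 95% interval −0.48 to −0.22, adjusted p = 0.000968). PRDX1, a cytosolic enzyme, went from 682, 719 and 741 CPM to 607, 636 and 593 CPM, a log2 fold change of −0.22 (SE 0.0645, adjusted p = 0.0203). The call of PRDX1 was lost without 20% O2 + Doxy replicate 2 or 3 and without 20% O2 wo Doxy replicate 1 or 3 (log2 −0.22 to −0.20, adjusted p 0.0542 to 0.0926). PRDX5 moved the other way, from 167, 171 and 161 CPM to 206, 220 and 197 CPM, with every library without Doxy above every one with. Its log2 fold change was 0.32 (SE 0.103, 95% interval 0.10 to 0.55, adjusted p = 0.0311), and the call was lost when any one of the 6 libraries was left out (log2 0.26 to 0.34, adjusted p 0.0640 to 0.145). Of 14 alternative fits, PRDX5 passed in 7. PRDX6 had 325, 321 and 332 CPM with Doxy and 293, 306 and 303 CPM without, and PRDX2 had 130, 110 and 107 CPM with and 102, 109 and 101 CPM without. Neither passed, with log2 fold changes of −0.12 (adjusted p = 0.0629) for PRDX6 and −0.15 (adjusted p = 0.221) for PRDX2. PRDX6 was nevertheless lower in every library without Doxy, and passed with DESeq2's size factors (adjusted p = 0.0461) and with DESeq2's Wald test (adjusted p = 0.00705). Replicates did not overlap for 7 of the 10 transcripts, against 52.3% of all genes.

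SOD1, SOD2 and PRDX3 passed at an adjusted p under 0.05 at 20% O2 in all alternatives tried. With 20% O2 + Doxy replicate 2 or 3 or 20% O2 wo Doxy replicate 1 or 3 left out, these 3 were the ones that passed. Of 17236 to 17392 genes tested in those fits, 2093 to 2649 passed as higher and 2180 to 2926 as lower. Without the 3 libraries that stood apart, 8 of the 10 passed (48.2% of all genes), including PRDX6 at a log2 fold change of −0.15 (adjusted p = 0.00562) and GPX1 at 0.17 (adjusted p = 0.0124), while PRDX2 and GPX4 did not.

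**Figure D2:**
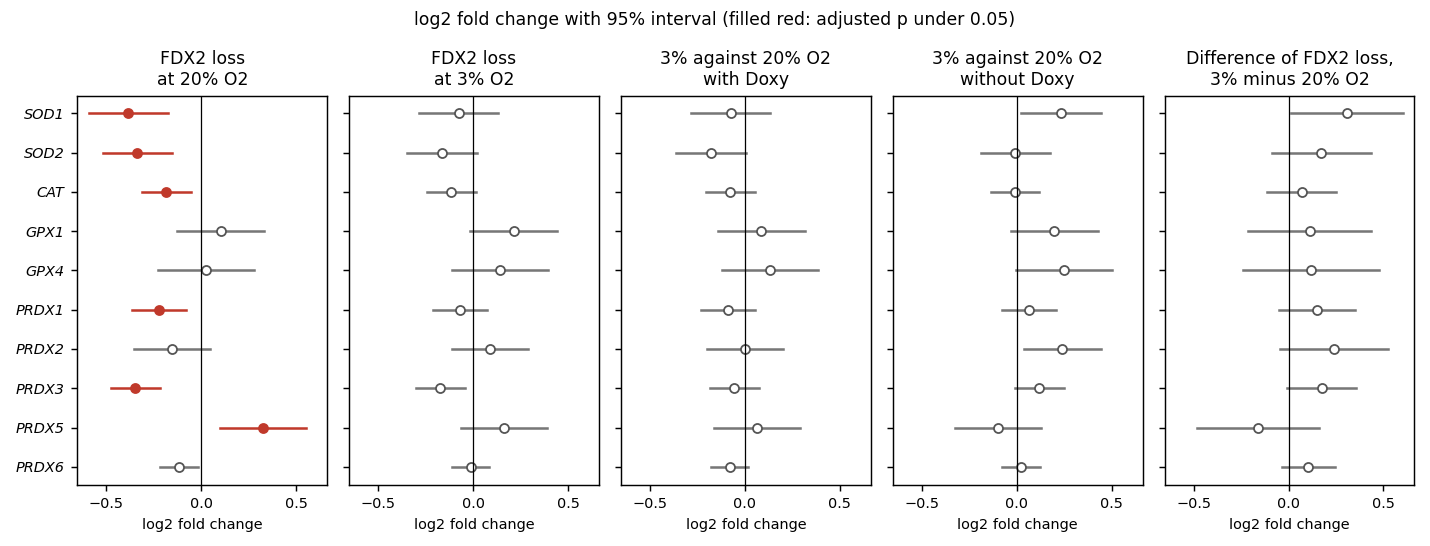
Log2 fold change of each transcript (horizontal axes) with its 95% interval in the 5 comparisons, with calls at adjusted p under 0.05 filled in red. Calls are seen only in the first panel, FDX2 loss at 20% O2, where 5 transcripts lie below 0 and PRDX5 above.

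FDX2 loss at 3% O2 addressed the same question under low oxygen, and none of the 10 transcripts passed there with edgeR (1 of 10 at an unadjusted p under 0.05, against 23.1% of all genes), while 7.31% of all genes did. With DESeq2's Wald test, PRDX3 passed (1 of 10), against 839 of 16891 genes higher and 1086 lower. The log2 fold changes ranged from −0.17 for PRDX3 to 0.21 for GPX1, and adjusted p-values from 0.104 to 0.887. SOD1 had 163, 161 and 130 CPM with Doxy and 159, 134 and 137 CPM without, and the groups overlapped because replicate 3 with Doxy was low and replicate 1 without Doxy was high. PRDX3 had 242, 244 and 232 CPM with and 196, 218 and 222 CPM without, and CAT had 33.1, 32.2 and 33.2 CPM with and 31.9, 29.7 and 29.4 CPM without. These were the 2 transcripts whose replicates did not overlap, both lower without Doxy, against 24.6% of all genes in either direction. SOD2 had 55.2, 53.2 and 44.3 CPM with and 45.7, 43.7 and 46.9 CPM without. PRDX5 had 184, 181 and 155 CPM with and 230, 175 and 178 CPM without, with 1 library far from its pair in each condition. The levels of PRDX1, PRDX2, PRDX6, GPX1 and GPX4 overlapped between the conditions.

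Here the calls depended on the libraries that stood apart. Without 3% O2 + Doxy replicate 3, SOD2 (log2 −0.26, adjusted p = 0.0413) and GPX1 (0.34, adjusted p = 0.0432) passed. Of 17306 genes, 891 passed as higher and 714 as lower in that fit. Without all 3, 8 of the 10 passed, as did 32.6% of all genes. SOD1 then fell (−0.29, adjusted p = 0.00155), as did SOD2 (−0.30, adjusted p = 0.00396), CAT (−0.18, adjusted p = 0.0303), PRDX1 (−0.21, adjusted p = 0.00303) and PRDX3 (−0.18, adjusted p = 0.00493). GPX1 (0.32, adjusted p = 0.000781), GPX4 (0.29, adjusted p = 0.00126) and PRDX2 (0.17, adjusted p = 0.0421) rose, and the estimate for PRDX5 turned to −0.09 (adjusted p = 0.226). Leaving out these libraries also shifted the balance of GC-rich against GC-poor transcripts between the groups, as given below.

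The effect of oxygen was compared next. With Doxy, none of the 10 transcripts passed between 3% and 20% O2, either with edgeR (0 of 10 at an unadjusted p under 0.05, against 13.0% of all genes) or with DESeq2's Wald test (0 of 10), and 2.02% of all genes passed with edgeR. The Wald test called 410 of 16891 genes higher and 210 lower. Log2 fold changes lay between −0.18 for SOD2 and 0.13 for GPX4, with 95% intervals reaching from −0.36 to 0.39. Only PRDX6 had replicates that did not overlap, with 306, 312 and 307 CPM at 3% O2 below the 325, 321 and 332 CPM at 20% O2, a log2 fold change of −0.08 (adjusted p = 0.508). Replicates did not overlap for 15.4% of all genes.

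Without Doxy, again none of the 10 passed between 3% and 20% O2 with edgeR or with DESeq2's Wald test (2 of 10 at an unadjusted p under 0.05 with edgeR, against 39.0% of all genes), while 25.8% of all genes did with edgeR (13.9% higher and 11.9% lower at 3% O2). The Wald test called 2491 of 16891 genes higher and 2269 lower. Replicates did not overlap for 4 transcripts, all higher at 3% O2, against 49.4% of all genes in either direction and 27.4% higher. SOD1 had 123, 130 and 113 CPM at 20% O2 and 159, 134 and 137 CPM at 3% O2 (log2 0.23, adjusted p = 0.0962). PRDX2 had 102, 109 and 101 CPM at 20% O2 and 118, 129 and 121 CPM at 3% O2 (log2 0.24, adjusted p = 0.0759). GPX1 went from 217, 213 and 209 CPM to 238, 259 and 237 CPM (log2 0.20, adjusted p = 0.183), and GPX4 from 131, 134 and 126 CPM to 141, 167 and 156 CPM (log2 0.25, adjusted p = 0.131). SOD2 and CAT hardly differed, at log2 −0.01 each, with 95% intervals of −0.19 to 0.18 and −0.14 to 0.12.

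The labels give replicate numbers but do not say that libraries of different conditions were paired. Between these 2 conditions the numbers were taken as pairs, a choice made from correlations among these same libraries. With the pairing as a block in a fit to the 6 libraries, 3 of the 10 passed, all higher at 3% O2: GPX1 (log2 0.18, adjusted p = 0.0358), GPX4 (0.24, adjusted p = 0.0319) and PRDX2 (0.23, adjusted p = 0.0130). Of all genes, 31.1% passed in that fit. The 6 libraries without the block also gave GPX1, GPX4 and PRDX2 (34.2% of all genes), whereas the block within the fit to all 12 libraries gave none of the 10 (19.0% of all genes). Without 3% O2 wo Doxy replicate 1, only PRDX5 passed, lower at 3% O2 (log2 −0.24, adjusted p = 0.0492). Of 17208 genes, 2364 passed as higher and 1836 as lower in that fit. Without the 3 libraries that stood apart, 6 of the 10 passed (46.8% of all genes): SOD1, GPX1, GPX4, PRDX2 and PRDX3 were higher and PRDX5 lower at 3% O2.

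Whether the response to FDX2 loss differed between 3% and 20% O2 was tested as the difference of the 2 log2 fold changes. No transcript of the 10 passed with edgeR or DESeq2's Wald test (1 of 10 at an unadjusted p under 0.05 with edgeR, against 23.4% of all genes), against 7.29% of all genes with edgeR (3.21% positive and 4.08% negative). The Wald test called 977 of 16891 genes positive and 955 negative. The estimates were positive for 9 of the 10, from 0.07 for CAT to 0.31 for SOD1 (95% interval 0.01 to 0.60, adjusted p = 0.198), and negative for PRDX5 (−0.16, 95% interval −0.48 to 0.16, adjusted p = 0.542). The median of the 10 was 0.13 and that of all genes 0.05. Thus the 6 calls at 20% O2 and their absence at 3% O2 were not shown to be different responses. Without the 3 libraries that stood apart, PRDX2 (0.26, adjusted p = 0.0238), PRDX3 (0.25, adjusted p = 0.00415) and PRDX5 (−0.38, adjusted p = 0.00170) passed, as did 27.3% of all genes.

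The GC content of the transcripts was 41.4% for PRDX3, 45.7% for CAT, 46.2% for PRDX6, 49.5% for SOD1, 49.5% for SOD2 and 49.9% for PRDX1, against 57.8% for PRDX2, 60.7% for PRDX5, 63.1% for GPX1 and 63.4% for GPX4. Genes at or above 5 CPM had a median of 48.9% and quartiles of 43.6% and 56.2%. Across all such genes, the median log2 fold change of the genes above the upper quartile of GC content differed from that of the genes below the lower quartile by −0.22 for FDX2 loss at 20% O2, by 0.13 at 3% O2, by 0.42 for 3% against 20% O2 without Doxy and by 0.35 for the difference of the responses. Within a condition, the same contrast of each library against its condition mean was 0.38 for 20% O2 + Doxy replicate 1, 0.35 for 3% O2 + Doxy replicate 3 and 0.20 for 3% O2 wo Doxy replicate 2, and between −0.27 and 0.05 for the others. GPX1, GPX4 and PRDX2 were at their highest within the condition in those same 3 libraries. PRDX5, also rich in GC, was at its lowest in 3% O2 + Doxy replicate 3 and 3% O2 wo Doxy replicate 2 and lay between the other replicates in 20% O2 + Doxy replicate 1. Of the 3 libraries that stood apart, those with Doxy had contrasts of 0.38 and 0.35, and 3% O2 wo Doxy replicate 1 had −0.14. Leaving them out thus lowered this contrast in both groups with Doxy and raised it in 3% O2 wo Doxy. What this did to the estimates of those fits was not tested.

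When each library's trend with GC content was taken out, a step added after the data were seen, 9 of the 10 passed for FDX2 loss at 20% O2 (45.8% of all genes). GPX1 (log2 0.34, adjusted p = 0.00134) and GPX4 (0.27, adjusted p = 0.00133) then passed as higher beside PRDX5 (0.49, adjusted p = 0.0445), PRDX6 as lower (−0.16, adjusted p = 0.00805), and PRDX2 did not pass (−0.02, adjusted p = 0.645). The step also takes out any trend that differs between conditions, so these changes are relative to genes of like GC content. Before it, GPX4 had 128 ± 18.1 CPM with and 130 ± 4.07 CPM without Doxy. The same step turned the oxygen estimates of GPX1 and GPX4 without Doxy to −0.15 (adjusted p = 0.116) and −0.10 (adjusted p = 0.161), and PRDX3 alone passed, as higher at 3% O2 (0.24, adjusted p = 0.00437), against 32.9% of all genes. Together with the replicate block in the 6 libraries, SOD1 (0.22, adjusted p = 0.0487) and PRDX3 (0.24, adjusted p = 0.0259) passed as higher (28.4% of all genes). For the difference of the responses, GPX4 turned to −0.25 (adjusted p = 0.0405) and PRDX3 passed at 0.24 (adjusted p = 0.0465), against 17.5% of all genes. The falls of SOD1, SOD2, CAT, PRDX1 and PRDX3 at 20% O2 stayed between −0.39 and −0.22. Whether the trend with GC content arose in the cells or in library preparation was not tested.

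Of 9 other genes of the same families, PRDX4, GPX8 and CCS could be tested. PRDX4, the peroxiredoxin of the endoplasmic reticulum, had 139 ± 4.66 CPM at 20% O2 + Doxy and 128 ± 1.51 CPM at 20% O2 wo Doxy (adjusted p = 0.183), and GPX8, a glutathione peroxidase of the same compartment, 84.6 ± 6.53 and 79.9 ± 2.23 CPM (adjusted p = 0.374). SOD3, GPX2, GPX3, GPX5, GPX6 and GPX7 had at most 3 counts in any library and could not be tested.

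The enzymes draw on other genes of the pathway, of which 76 were listed and 61 could be tested. The lists were drawn up with earlier results of these data known. Their counts, here and below, are therefore no independent test against the share of all genes. With FDX2 loss at 20% O2, 25 of the 61 passed, 16 higher and 9 lower, against 35.3% of all genes (17.6% higher and 17.7% lower). The single lists hold at most 11 tested genes each, and nothing is read from their counts beyond the genes named. The thioredoxin and sulfiredoxin system, part of which recycles peroxiredoxins, had 4 of 10 genes higher (TXNIP, SESN2, SESN3 and TXNRD1) and none lower. The thioredoxin TXN (log2 −0.03, adjusted p = 0.853), the reductase TXNRD3 (−0.11, adjusted p = 0.409) and the sulfiredoxin SRXN1 (−0.23, adjusted p = 0.449) did not pass. TXNIP, which binds and inhibits thioredoxin, rose from 71.8 ± 5.2 to 206 ± 2.95 CPM (log2 1.52, adjusted p = 1.39e-07). The sestrins SESN2 (log2 1.74, adjusted p = 4.36e-05) and SESN3 (0.93, adjusted p = 3.91e-05), stress-induced regulators, rose as well. Another sestrin, SESN1, did not pass, at log2 −0.33 (95% interval −0.62 to −0.05, adjusted p = 0.0653). All its libraries without Doxy lay below those with Doxy. TXNRD1, the cytosolic thioredoxin reductase, rose from 886 ± 35.1 to 1017 ± 17.7 CPM (log2 0.20, adjusted p = 0.00998), while TXN2 and TXNRD2, which serve the mitochondrial PRDX3, had log2 fold changes of −0.07 (adjusted p = 0.573) and −0.15 (adjusted p = 0.374).

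Of 11 genes of glutathione synthesis and reduction, 4 rose and 2, GCLM and GSTP1, fell. The cystine transporter SLC7A11 rose from 28.0 ± 2.40 to 63.5 ± 4.27 CPM (log2 1.18, adjusted p = 1.42e-05), MGST1 by 0.48 (adjusted p = 0.00843) and GLRX2 by 0.41 (adjusted p = 0.00761) on the log2 scale. The call of GLRX2 was lost without 20% O2 wo Doxy replicate 3 (adjusted p = 0.0555). In NADPH supply, 1 of 10 genes rose, ME3 (log2 0.65, adjusted p = 0.0115), and 1 fell, IDH1 (−0.40, adjusted p = 0.00184). Of 5 genes of selenoprotein synthesis, on which GPX1 and GPX4 depend, SECISBP2 rose (0.27, adjusted p = 0.00350) and EEFSEC fell (−0.47, adjusted p = 0.0430), a call lost without any library of the comparison other than 20% O2 + Doxy replicate 3 (adjusted p 0.0539 to 0.138). Among 7 oxidases that produce superoxide or peroxide, AOX1 rose (0.61, adjusted p = 2.68e-06), and XDH (−0.82, adjusted p = 3.91e-05) and ERO1A (−0.31, adjusted p = 0.01) fell. In lipid peroxidation and ferroptosis control, 1 of 6 genes rose, GCH1 (0.42, adjusted p = 0.00232), and 2 fell, DHODH (−0.41, adjusted p = 0.00227) and LPCAT3 (−0.50, adjusted p = 0.0128), which shares 65.6% of its exonic bases with EMG1 on the other strand, so that its counts cannot be assigned with certainty. SRXN1 shares 85% of its exonic bases with AL121758.1 on the same strand. Among the other pathway genes named here, exonic bases are shared with another gene by NFE2L2 (17.6% on the same strand), EEFSEC (15.3% on the other strand) and CCS (10.6% on the other strand), and to less than 10% on either strand by SLC7A11, GLRX2, ERO1A, FOXO1, BACH1, TXNRD2, IDH1, SESN1 and SESN3. Of the markers that passed the filter, VIM shares 24.4% and KRT18 16.3% on the other strand, and PAX8, KRT7 and KRT8 less than 10%. Overlaps of the genes nearest in pattern, named below, were not examined. Of 9 transcription regulators of antioxidant genes, 4 rose and 1 fell. PPARGC1A, a coactivator of mitochondrial and antioxidant genes, rose by 1.53 on the log2 scale (adjusted p = 8.14e-06), FOXO4 by 0.71 (adjusted p = 0.000901) and BACH1, a repressor that competes with NRF2, by 0.63 (adjusted p = 0.000144). NFE2L2, the gene for NRF2, had 78.8 ± 5.02 CPM with and 82.7 ± 0.576 CPM without Doxy (adjusted p = 0.350).

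At 3% O2, FDX2 loss called 5 of the 61 pathway genes, near the 7.31% of all genes. AOX1 (log2 0.39, adjusted p = 0.000708), FOXO4 (0.45, adjusted p = 0.0441) and FOXO1 (0.34, adjusted p = 0.0328) rose, and TXNIP (−0.34, adjusted p = 0.0127) and NFE2L2 (−0.24, adjusted p = 0.0237) fell. The calls of FOXO1 and FOXO4 were lost when any one of the 6 libraries was left out, that of NFE2L2 without replicate 1 or 2 of either condition, and that of TXNIP without replicate 2 of either. The count of 5 became 1 without 3% O2 + Doxy replicate 2 or 3% O2 wo Doxy replicate 2, and 3 without 3% O2 + Doxy replicate 1.

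Low oxygen with Doxy also called 5 of the 61, TXNIP, XDH, ERO1A and PPARGC1A higher and TXNRD1 lower, against 2.02% of all genes. TXNRD1 fell from 886 ± 35.1 to 654 ± 34.1 CPM (log2 −0.44, adjusted p = 0.000671), and TXNIP rose from 71.8 ± 5.2 to 132 ± 7.69 CPM (log2 0.87, adjusted p = 3.6e-05). The count of 5 became 3 without 20% O2 + Doxy replicate 2 or 3% O2 + Doxy replicate 1, the call of PPARGC1A was lost when any of the 6 libraries was left out, and that of ERO1A without replicate 1 or 2 of either condition. Without Doxy, oxygen called 24 of the 61, 6 higher and 18 lower at 3% O2, against 25.8% of all genes (13.9% higher and 11.9% lower). SLC7A11 stood at 63.5 ± 4.27 CPM at 20% O2 and 17.7 ± 1.34 CPM at 3% O2 (log2 −1.84, adjusted p = 3.96e-06), TXNRD1 at 1017 ± 17.7 and 642 ± 24.5 CPM (log2 −0.66, adjusted p = 1.3e-05), and SESN2 at 47.8 ± 1.10 and 18.2 ± 3.63 CPM (log2 −1.39, adjusted p = 0.000445). XDH rose from 15.5 ± 0.483 to 35.7 ± 3.39 CPM (log2 1.2, adjusted p = 1.01e-05). The glutathione list had 6 genes lower and 2 higher, GLRX and GSTP1. Several of these comparisons share libraries, so their counts are not independent of one another.

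The patterns most like those of SOD1 and PRDX3, the 2 transcripts with the largest log2 fold changes, were sought among 10790 genes that averaged 5 CPM or more, by the root mean square difference of the centred log2 means of the 4 conditions. For SOD1 the nearest were PEMT, SLC6A6, PDCD7, IGHMBP2 and MYO1C, at 0.0126 to 0.0138 on the log2 scale. For PRDX3 they were HAUS1, VKORC1L1, SET, DZIP1 and TSC22D2, at 0.00375 to 0.00684. Measured from SOD1, PRDX3 was at 0.0436 with rank 350, the nearest of the other 9 enzymes, and PRDX5 at 0.268 with rank 8705, the farthest. The distances take no account of the spread of replicates. At 20% O2 the standard errors of the log2 fold changes, 0.0953 for SOD1 and 0.0588 for PRDX3, exceed all of them but that of PRDX5. The order among near genes is therefore a description only.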

How the data were processed

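RNA-seq was analysed in 12 libraries of FDX2-iKO ES2 cells (3 per condition). Per the labels and the paper's methods, poly(A) RNA was the input and the DNBSEQ-T7 instrument read both fragment ends. The authors used STAR for alignment to GRCh38, then featureCounts, and deposited raw gene counts that are not normalized. Versions, annotation, strand setting and the treatment of multiply aligned reads are not given in the sources used here. For 20% O2 + Doxy replicates 1 and 2, 1 raw read file of each pair was lost by the submitters, whose table still holds the counts of both. All 58735 identifiers match GENCODE release 29.

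The tools were edgeR 4.0.16, DESeq2 1.42.0 and limma 3.58.1, run under R 4.3.3. Of 32966 genes with a count, 16891 passed filterByExpr (minimum count 10, minimum total 15). Libraries were scaled by TMM, 4 condition means were fitted to all 12 (8 residual degrees of freedom), and genes were called by the quasi-likelihood test at a Benjamini-Hochberg adjusted p under 0.05 over all genes. Depth was 24958386 to 34313637 counts per library. The replicates are biological as labelled, and p-values measure the spread among them. Steps were tested on simulated counts. Single values of some marker genes are not reported here. The 10 genes, the gene lists and the tests were chosen with earlier results of these data known. Named are the 10 genes, CA9, FDX2, up to 3 genes of each list and comparison with the largest change among those called, other list genes singled out after their values were seen (TXNRD1 at 20% O2, TXN, TXN2, TXNRD2, TXNRD3, SRXN1, SESN1, PRDX4, GPX8, CCS, GCLM, GLRX, GSTP1 and NFE2L2 at 20% O2), and the 5 genes nearest in pattern to each of the 2 enzymes with the largest change.

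Alternatives were no filter, size factors from DESeq2, a minimum of 10 counts per library, a replicate block, only the libraries compared, each library left out, DESeq2's Wald test, and an adjusted p under 0.01. Added after the data were seen were a GC correction (each library's lowess trend of log2 CPM on transcript GC content, span 0.3, as an offset), the block in the 6 libraries compared, leaving out 3 libraries that stood apart, and summing both SOD2 identifiers. Replicate numbers were checked by correlating deviations from condition means over 11133 genes. Same-numbered libraries of the wo Doxy groups correlated at 0.247 to 0.363, and differently numbered ones at −0.43 to 0.0756. Only there did all 3 values exceed 0.1, and only there were the numbers taken as pairs. Differently numbered libraries of 20% O2 + Doxy and 3% O2 + Doxy correlated at up to 0.818, so such correlations do not establish a pairing.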

Additional observations from a re-analysis of the deposited data

Results flagged for a closer look

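The response to FDX2 loss at 3% O2 minus that at 20% O2 passed the test of the difference (edgeR, adjusted p under 0.05) for 10 of the 61 other pathway genes tested, 9 of them negative, against 7.29% of all genes (3.21% positive and 4.08% negative). Because the lists were drawn up with earlier results of these data known, this count is no independent test against that share. On the log2 scale the difference was −1.86 for TXNIP, −1.46 for SESN2, −1.39 for SLC7A11 and −1.08 for PPARGC1A, and these 4 passed in all alternatives at that threshold. It was −0.59 for GCH1, whose call was lost without 20% O2 wo Doxy replicate 3 (adjusted p = 0.0554). The difference was −0.58 for SESN3, 0.54 for XDH, −0.48 for BACH1, −0.31 for SECISBP2 and −0.31 for NFE2L2. Of the 12 fits that left out 1 library, the call was lost in 9 for SESN3 (adjusted p up to 0.113), 6 for XDH (up to 0.0601), 8 for BACH1 (up to 0.117), 9 for SECISBP2 (up to 0.105) and 8 for NFE2L2 (up to 0.125), with the losses spread over libraries of several conditions. None of the 10 detoxifying enzymes passed this test with edgeR or DESeq2's Wald test. With edgeR, 1 of 10, SOD1, had an unadjusted p under 0.05, against 23.4% of all genes.

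The second identifier of SOD2, which enters no comparison, had 32 counts in 3% O2 wo Doxy replicate 1 and 2 to 9 counts in the other 11 libraries. That library is one of the 3 that stood apart from their condition. Adding these counts to those of SOD2 changed none of its calls.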

How the results depend on the processing

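Of 16891 genes tested, the calls below use an adjusted p under 0.05 unless stated. Among the 10 enzymes, the 6 calls for FDX2 loss at 20% O2 became 3 at an adjusted p under 0.01 and 3 to 5 with 1 library left out. Over all genes, fits with 1 library left out gave 2093 to 2649 higher and 2180 to 2926 lower. The number of all genes passing at an adjusted p under 0.01 is not given here, so counts at that threshold stand without it. At 3% O2 the count of 0 became 0 to 2 with 1 library left out, 1 with DESeq2's Wald test and 8 without the 3 libraries that stood apart. Over all genes, fits with 1 library left out gave 344 to 891 higher and 217 to 714 lower there, and the Wald test 839 and 1086. For oxygen without Doxy the count of 0 became 0 to 1 with 1 library left out, 3 in the 6 libraries alone, 1 with the GC correction and 6 without the 3 libraries. For the difference of the responses the count of 0 became 2 and 3 in the latter 2 fits. Over all genes, fits with 1 library left out gave 1176 to 2364 higher and 1145 to 1836 lower for oxygen without Doxy. Shares of all genes for the other fits stand with their results above.

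For the other pathway genes, the 5 calls for FDX2 loss at 3% O2 became 1 at an adjusted p under 0.01, 2 without a filter, 1 in the 6 libraries alone, 1 to 7 with 1 library left out, 10 with the Wald test, 16 with the GC correction and 29 without the 3 libraries. The 5 for oxygen with Doxy became 3, at an adjusted p under 0.01 and in the 6 libraries, 3 to 5 with 1 library left out, and 10, 13 and 11 in the same 3 last fits. The 10 for the difference became 4 at an adjusted p under 0.01, 6 without a filter, 4 to 14 with 1 library left out (4 without 20% O2 wo Doxy replicate 3), and 16, 22 and 24. Higher and lower calls over all genes are given for the same 3 last fits in turn. They were 839 and 1086, 1507 and 1559, and 2715 and 2839 for FDX2 loss at 3% O2. For oxygen with Doxy they were 410 and 210, 758 and 383, and 533 and 449. For the difference they were 977 and 955, 1478 and 1474, and 2832 and 1823. Without a filter they were 348 and 330 for FDX2 loss at 3% O2 and 305 and 367 for the difference.

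With the replicate block in all 12 libraries, the enzymes called were 5 for FDX2 loss at 20% O2 (CAT lost, log2 −0.18, adjusted p = 0.0618) and 0 in the other comparisons. Pathway calls became 2 for FDX2 loss at 3% O2, 3 for oxygen with Doxy and 5 for the difference. Over all 16891 genes, the block gave 2645 higher and 2434 lower for FDX2 loss at 20% O2, and 429 and 247 at 3% O2. For oxygen with Doxy it gave 199 and 19, and for the difference 232 and 383. For oxygen without Doxy, the block in the 6 libraries gave 3 enzymes, and 2 with the GC correction. In that comparison the pairing was taken from the data, and elsewhere the replicates share only a number.

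Directions turned for 14 estimates, none of them called as first fitted. For GPX4 the turned difference of the responses passed, at −0.25 with the GC correction. The same correction gave −0.24 for GPX1 in the difference and 0.0028 for PRDX3 for oxygen with Doxy. For oxygen without Doxy it gave −0.15 for GPX1, −0.10 for GPX4 and 0.064 for CAT, and together with the block −0.15, −0.10 and 0.065. GPX4 at 20% O2 was −0.013 without a filter, PRDX5 at 3% O2 was −0.089 without the 3 libraries, SOD2 for oxygen without Doxy was 0.0047 with both identifiers summed, and PRDX6 there was −0.0031 with at least 10 counts in every library. With 1 library left out, estimates for oxygen with Doxy spanned −0.13 to 0.022 for SOD1, −0.038 to 0.18 for GPX1 and −0.091 to 0.080 for PRDX2. Without Doxy they spanned −0.058 to 0.036 for SOD2, −0.046 to 0.016 for CAT and −0.012 to 0.058 for PRDX6. For FDX2 loss they spanned −0.048 to 0.13 for GPX4 at 20% O2 and −0.048 to 0.021 for PRDX6 at 3% O2, and for the difference −0.0069 to 0.24 for GPX4. The cause of these changes was not tested. Counts of the enzymes were at least 748 per library.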
